A study of Mus musculus with 12 samples.

Results

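The genes described here are 53 DNA repair genes among the 12955 genes of an RNA-seq table from mouse PGCLCs (primordial germ cell-like cells), a culture model of the cells that found the germ line. They were taken by symbol, from the Fanc, Rad, Xrcc, Brca, Msh, Mlh, Ercc and Parp families, by a rule that uses names and not levels. Grouped by role, there were 12 genes of homologous recombination, 10 of the Fanconi anaemia pathway, 8 of nucleotide excision repair, 5 of mismatch repair, 5 of checkpoint signalling and damage tolerance, 3 of end joining and 3 of single-strand break repair. Rad21, a cohesin subunit, and Msh5, a meiotic crossover protein, stood alone, and 5 others (Ercc6l, Ercc6l2, Rad54l2, Fancd2os and Xrcc6bp1) share a family symbol without a settled place in those pathways. Of the 53, 52 reached an FPKM (fragments scaled to transcript length and library size) of at least 1 in at least 2 libraries and could be tested among 12059 such genes. Msh5 did not, at 0.0153 to 0.798 FPKM.

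The 12 libraries formed 6 groups of 2. All came from J1 male embryonic stem cells differentiated as embryoid bodies and sorted with antibodies to CD61 and SSEA1. At day 2, the groups were cells given dTAG13 for 2 days, cells given DMSO for 2 days, OE cells and EV cells. OE and EV cells were also taken at day 6, and the study title names Tex10 as the gene under study. dTAG13 is a small molecule that recruits a ubiquitin ligase to proteins carrying a matching degradation tag, and DMSO is its solvent. The labels use OE and EV without spelling them out, describe neither the constructs nor the tagged protein, and do not say whether the 2 libraries of a group came from separate cultures, so the p-values measure the spread between these libraries, which may be technical.

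DNA repair is divided by lesion. Homologous recombination copies a sister chromatid to mend a broken duplex, with Brca1 and Brca2 at its core, whereas end joining ligates the ends held by the Ku heterodimer of Xrcc5 and Xrcc6. The Fanconi anaemia pathway unhooks crosslinks between strands, mismatch repair corrects replication errors, nucleotide excision repair removes bulky adducts, and Parp1 with Xrcc1 handles nicks. In the mouse, primordial germ cells are lost or reduced when several Fanconi anaemia genes are inactivated, and homologous recombination is later reused for meiotic crossing over.

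The target transcript and the sorted cells were checked first. Tex10 read 45.2 and 36.5 FPKM with dTAG13, against 61.7 and 56.8 with DMSO. OE cells at day 2 had 403 and 378 FPKM, against 119 and 145 FPKM in EV cells. At day 6 OE cells had 259 and 269 FPKM, against 65.7 and 81.5 FPKM in EV cells. Since dTAG13 acts on protein, its effect on the target cannot be read from the transcript. Pou5f1 ran from 610 to 1156 FPKM and the 7 germ cell markers summed to 142 to 274 FPKM, while mesoderm markers summed to at most 12.5, endoderm markers to at most 6.39 and endothelial and blood markers to at most 0.360 FPKM. The neural pair in the table, Tubb3 and Pax6, summed to 42.7 to 127 FPKM, with Pax6 at most 2.15. Itgb3, the CD61 gene, was listed at 0 in dTAG13 replicate 1 and read 0.83 FPKM in replicate 2, against 1.29 and 0.73 with DMSO. In bulk RNA, fewer cells of a type and less RNA per cell cannot be told apart. One library stood apart: dTAG13 replicate 1 listed 2008 genes at 0, against 18 to 127 in each of the others, and 27 of the 52 tested repair genes (51.9%) lay outside the range of the other 11 libraries, 13 above and 14 below, beside 58.1% of all tested genes. Since all groups share 1 estimate of spread in the test, each comparison of the 52 repair genes is given with and without that library.

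The repair genes were mostly well expressed. Their mean levels over the 12 libraries had a median of 21.3 FPKM, against 10.5 FPKM over all tested genes. Msh6, a subunit of the mismatch sensor, was among the highest: it averaged 362 FPKM, with 302 FPKM in its lowest library. Parp1, the poly(ADP-ribose) polymerase that senses nicks, ran from 202 to 352 FPKM with a mean of 264. Xrcc6 (Ku70) averaged 102 FPKM, the highest of end joining.

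Other members were lower. The least abundant gene of homologous recombination was Rad51c, which helps strand-exchange filaments form (mean 5.43 FPKM), and that of end joining was Xrcc4, the scaffold of DNA ligase IV (6.56 FPKM). Fanconi anaemia genes lay between Fancf, a core complex adaptor at 1.04 FPKM, and Fanci, a subunit of the clamp that the core complex ubiquitinates, at 28.0 FPKM. Nucleotide excision repair had the lowest median of the 7 pathways, 7.72 FPKM, and its lowest gene was Ercc6 (CSB, which acts where RNA polymerase stalls) at 3.43 FPKM. Mismatch repair reached down to Mlh3 at 13.7 FPKM, single-strand break repair to Parp2 at 67.9 FPKM, and the checkpoint genes ran from Rad9b at 16.1 to Rad1 at 45.1 FPKM. Xrcc6bp1, now called Atp23, a mitochondrial metallopeptidase, had the highest level of the remaining genes (37.6 FPKM) and Rad54l2 the lowest (1.33 FPKM). Rad21 averaged 28.0 FPKM. The members nearest the filter were Fancf, at or above 1 FPKM in 6 libraries, Fancd2os in 10, and Rad54l2 and Xrcc4 in 11.

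**Figure D1:**
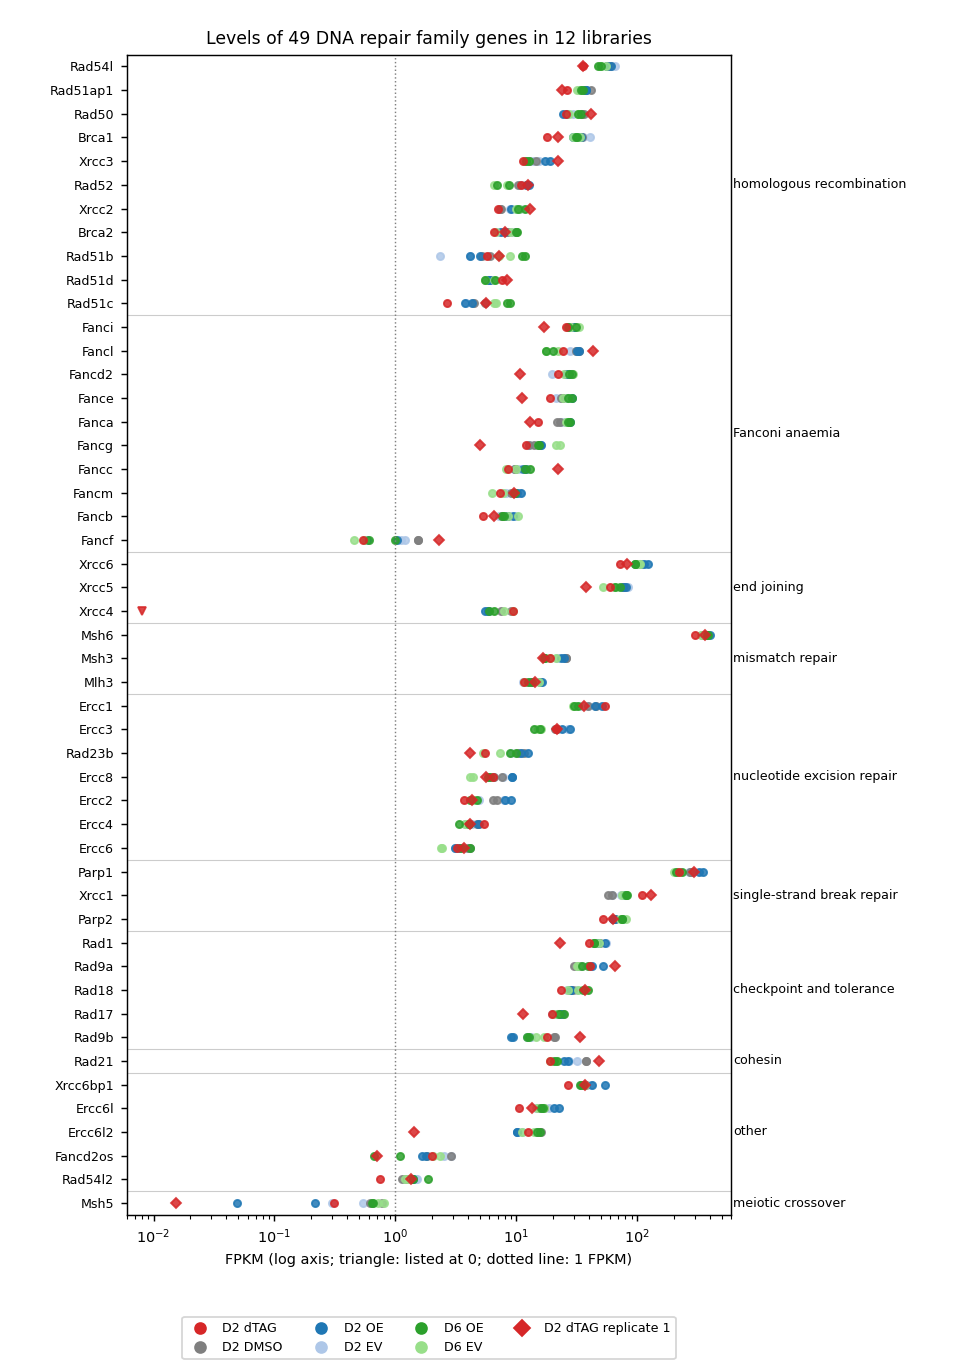
FPKM on a log axis of 49 repair genes in each of the 12 libraries, ordered by pathway and mean level; colours mark the 6 groups, the diamond marks dTAG13 replicate 1 and a triangle a gene listed at 0. Msh6 and Parp1 lie farthest right, only Msh5 stays under 1 FPKM in every library, and the diamond often lies away from the other points.

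Levels varied little from library to library. Leaving out dTAG13 replicate 1, the range over the other 11 libraries had a median of 0.72 on the log2(FPKM + 1) scale for the repair genes, against 0.99 for all tested genes, and 43 of 52 (82.7%) spanned less than 1, beside 50.9% of all tested genes. The checkpoint clamp loader Rad17 (0.31), Fanci (0.35), Rad51d (0.39) and Msh6 (0.40) spanned least. The 5 with the widest ranges were Rad51b (1.94) and Rad51c (1.42), then Fancd2os (1.22), Brca1 (1.14) and the testis-enriched checkpoint clamp subunit Rad9b (1.13). For Rad51b and Rad51c the 4 day 6 libraries lay above all day 2 libraries, and for Brca1 the dTAG13 libraries lay below all others.

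dTAG13 against DMSO gave 9 changed repair genes of 52 (17.3%) in limma at an adjusted p below 0.05, beside 12.2% of all tested genes. Of these, 8 were lower (15.4% of the 52), beside 8.21% of all genes, and 1 was higher (1.92%), beside 4.01%. The lower genes came from 5 pathways: Brca1, Rad54l and Rad51ap1 of homologous recombination, the Ku pair Xrcc5 and Xrcc6, Fanca, Msh3 and Rad23b. The gene that rose was Xrcc1. The median log2 difference of the 52 was -0.20, against -0.13 over all tested genes, and 37 were negative. Both dTAG13 libraries lay below both DMSO libraries for 22 repair genes, beside 34.7% of all genes, and above both for 3, beside 13.8%.

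Brca1, a ubiquitin ligase that promotes homologous recombination (chromosome 11, 101488764 to 101551955, minus strand, GRCm38), read 22.3 and 18.0 FPKM with dTAG13, against 34.5 and 34.7 with DMSO. It fell by 0.76 on the log2(FPKM + 1) scale (SE 0.15, limma adjusted p = 0.0134, n = 2 per group). Rad54l, a motor protein of strand exchange (chromosome 4, 116094264 to 116123690, minus strand), read 35.3 and 35.6 FPKM with dTAG13, against 56.4 and 59.3 with DMSO. The 4 values of each gene fell into separate pairs, and the dTAG13 values were the lowest of the 12 libraries for Rad54l. Its log2 difference was -0.69 (SE 0.11, limma adjusted p = 0.00538). Rad51ap1, which helps joint molecules form (chromosome 6, 126923050 to 126939587, minus strand), read 23.9 and 26.3 FPKM with dTAG13, against 41.4 and 37.0 with DMSO (log2 difference -0.62, SE 0.12, limma adjusted p = 0.0135).

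Other genes of homologous recombination did not pass. Brca2, which loads the strand-exchange filament, read 8.04 and 6.49 FPKM with dTAG13, against 8.54 and 10.01 with DMSO (log2 difference -0.32, limma adjusted p = 0.323). Rad50, of the end-processing MRN complex, read 41.6 and 25.8 FPKM with dTAG13, on either side of 36.5 and 35.1 with DMSO. Rad51d, a filament mediator, read 8.30 and 7.56 FPKM with dTAG13, above 5.80 and 5.93 with DMSO, and did not pass either.

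Both Ku subunits were lower, while the third end-joining gene split by library. Xrcc5 (Ku80; chromosome 1, 72307421 to 72394952, plus strand) read 38.1 and 59.2 FPKM with dTAG13, against 76.2 and 78.2 with DMSO. The log2 difference was -0.69 (SE 0.19, limma adjusted p = 0.0404), and without dTAG13 replicate 1 it was -0.38 and did not pass (adjusted p = 0.0632). Xrcc6 (chromosome 15, 81987835 to 82040085, plus strand) read 82.2 and 71.5 FPKM with dTAG13, against 106 and 99.8 with DMSO, a log2 difference of -0.42 (SE 0.10, limma adjusted p = 0.0269). Its dTAG13 values were the 2 lowest of the 12 libraries. Xrcc4 was listed at 0 in dTAG13 replicate 1 and read 9.32 FPKM in replicate 2, against 9.11 and 7.51 with DMSO.

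In the Fanconi anaemia pathway, both dTAG13 libraries lay below both DMSO libraries for 6 of 10 genes, beside 34.7% of all genes, and 1 passed the test, beside 8.21% called lower among all genes, a share near that background. That gene was Fanca, a core complex subunit (chromosome 8, 123268300 to 123318576, minus strand), which read 12.97 and 15.2 FPKM with dTAG13, against 21.6 and 23.1 with DMSO. It fell by 0.64 (SE 0.13, limma adjusted p = 0.0149). Fancd2, the other subunit of the ubiquitinated clamp, read 10.7 and 21.95 FPKM with dTAG13, against 28.2 and 28.7 with DMSO. The core complex gene Fancg read 5.05 and 12.002 FPKM with dTAG13, against 12.8 and 14.1 with DMSO. In both, replicate 1 was far lower than replicate 2. Their log2 differences were -0.84 (limma adjusted p = 0.0651) and -0.70 (adjusted p = 0.138), and without replicate 1 they were -0.36 and -0.15.

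Msh3, which recognises larger loops (chromosome 13, 92211872 to 92355003, minus strand), was the mismatch repair gene that changed. It read 16.5 and 18.9 FPKM with dTAG13, against 25.8 and 25.9 with DMSO (log2 difference -0.53, SE 0.14, limma adjusted p = 0.0397). Msh6 read 365 and 302 FPKM with dTAG13, against 355 and 345 with DMSO. Its dTAG13 libraries lay on either side of the DMSO pair, and it did not pass (log2 difference -0.07, limma adjusted p = 0.662).

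Rad23b, which stabilises the damage sensor Xpc (chromosome 4, 55350043 to 55392237, plus strand), had the lowest log2 difference of the 9. It read 4.14 and 5.48 FPKM with dTAG13, against 10.3 and 11.5 with DMSO (log2 difference -1.04, SE 0.21, limma adjusted p = 0.0156). Both dTAG13 libraries thus lay below the DMSO pair. Ercc1, part of the nuclease that cuts on one side of the lesion, read 36.2 and 53.8 FPKM with dTAG13, against 45.2 and 39.0 with DMSO, and did not pass (log2 difference 0.07, limma adjusted p = 0.821).

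Xrcc1, the scaffold that gathers ligase and polymerase at nicks (chromosome 7, 24546289 to 24573440, plus strand), was the gene that rose. It read 131 and 110 FPKM with dTAG13, against 61.5 and 57.8 with DMSO, and both dTAG13 values lay above all other libraries. The log2 difference was 0.995 (SE 0.12, limma adjusted p = 0.0018). Parp1 read 293 and 223 FPKM with dTAG13, on either side of 272 and 278 with DMSO. The checkpoint clamp subunit Rad9a read 65.5 and 40.4 FPKM with dTAG13, against 32.9 and 29.8 with DMSO, which just missed the limit of the test (log2 difference 0.70, limma adjusted p = 0.0507).

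The clamp subunit Rad1 read 22.8 and 40.2 FPKM with dTAG13, against 49.6 and 45.6 with DMSO, and the clamp loader Rad17 read 11.4 and 19.7 FPKM with dTAG13, against 24.6 and 22.4 with DMSO. Both were below DMSO in each dTAG13 library, and neither passed. Rad18, which ubiquitinates PCNA at stalled forks, read 37.3 and 23.3 FPKM with dTAG13, on either side of 29.6 and 28.6 with DMSO. Among Fanconi core genes, Fance read 11.1 and 19.0 FPKM with dTAG13, against 24.3 and 23.3 with DMSO, and Fancb read 6.58 and 5.31 FPKM with dTAG13, against 8.61 and 7.62 with DMSO. Their dTAG13 values lay below DMSO in both libraries, as did those of Fanci, at 17.1 and 25.5 FPKM with dTAG13, against 27.1 and 27.4 with DMSO. Fancc, at 22.3 and 8.52 FPKM with dTAG13, against 9.80 and 9.68 with DMSO, and the translocase gene Fancm, at 9.52 and 7.37 FPKM with dTAG13, against 9.94 and 9.11 with DMSO, did not pass.

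The filament mediators Xrcc2 and Xrcc3 and cohesin's Rad21 had dTAG13 libraries on either side of DMSO. Xrcc2 read 12.955 and 7.06 FPKM with dTAG13, against 7.49 and 7.38 with DMSO. Xrcc3 read 22.3 and 11.4 FPKM with dTAG13, against 12.7 and 14.6 with DMSO. Rad21 read 48.0 and 19.2 FPKM with dTAG13, against 37.4 and 37.8 with DMSO. In each, replicate 1 was the higher of the dTAG13 pair. For Ercc6l2, a helicase-like protein, it was the lower, at 1.43 and 12.5 FPKM with dTAG13, against 16.0 and 15.0 with DMSO. Ercc4, the catalytic partner of Ercc1, read 4.10 and 5.44 FPKM with dTAG13, on either side of 4.92 and 4.73 with DMSO, and did not pass.

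**Figure D2:**
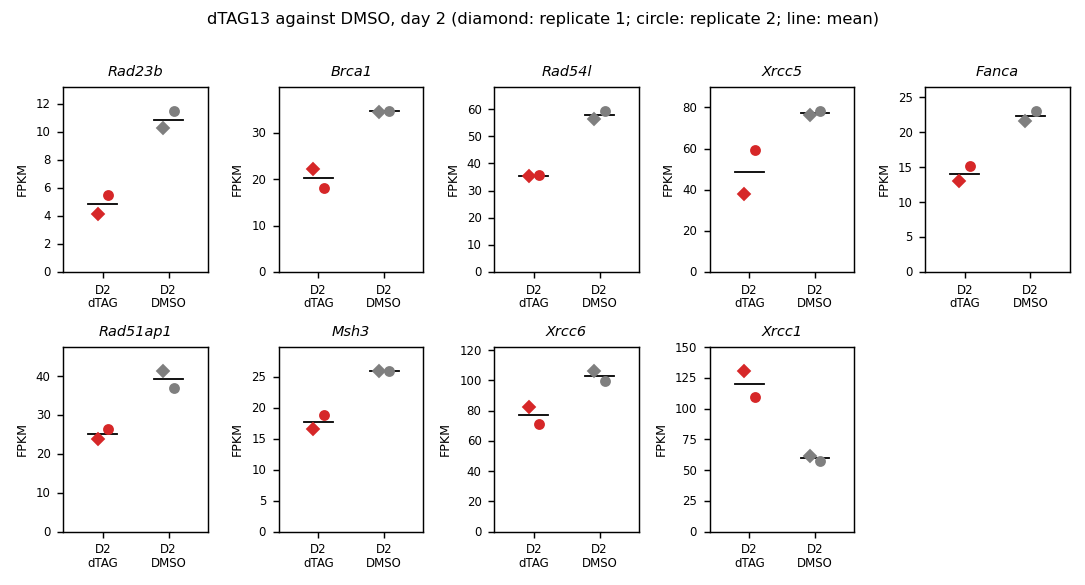
FPKM per library of the repair genes that changed with dTAG13, each panel with the 2 dTAG13 libraries left of the 2 DMSO libraries; the diamond is dTAG13 replicate 1. The 8 genes that fell have both dTAG13 points below both DMSO points, and Xrcc1 has both above.

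The count depended on single libraries. Without dTAG13 replicate 1 it was 15, beside 23.3% of all genes; 8 of the 9 remained, Xrcc5 was lost, and the genes added included Ercc2, Ercc6l, Fancf, Rad21, Rad50 and Rad51c. Without dTAG13 replicate 2 it was 29, beside 60.1% of all genes, and all 9 remained. Leaving out either DMSO library left fewer repair genes and fewer of all genes past the threshold. Xrcc1 remained in both of these fits, while most of the genes that fell were lost. Without DMSO replicate 1 the median log2 difference of the repair genes was -0.18, against -0.11 over all genes. Without DMSO replicate 2 it was -0.22, against -0.15. A model of these 4 libraries alone called 0 repair genes, and also 0 of all 10855 genes tested in it. Median-ratio scaling and quantile normalization each called 8, 2 higher and 6 lower, with Msh3 and Xrcc5 lost and Rad9a added. Of all 12059 genes they called 1307 and 1434. Quantile normalization also moved the median over all genes to -0.00, with the repair genes at -0.13.

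Several changes elsewhere in the transcriptome accompanied these values, and their part in the result was not tested. Of 20 targets of p53, 13 were higher with dTAG13 and 0 lower, beside 4.01% and 8.21% of all tested genes, with a median log2 difference of 0.93; their summed level was 2488 to 3084 FPKM with dTAG13, against 1285 to 1375 with DMSO. Of 24 replication and cell cycle genes, 4 fell, Ccne1 (-1.04), Cdc6 (-0.68), Rrm1 (-0.63) and Gins2 (-0.37), and 0 rose (16.7% lower, beside 8.21% of all genes). Their median was -0.26, against -0.13 over all genes, and the summed level was 3064 to 4060 FPKM with dTAG13, against 3883 to 4103 with DMSO. The 4 mesoderm markers in the table summed to 7.94 and 12.5 FPKM with dTAG13, against 6.72 and 5.14 with DMSO. Of these, Hand1 was higher (7.94 and 10.7 FPKM with dTAG13, against 4.16 and 2.88 with DMSO), while Eomes (0 and 1.47 with dTAG13, against 2.14 and 1.81 with DMSO) and Mixl1 (0 and 0.0702 with dTAG13, against 0.234 and 0.280 with DMSO) were lower, and Tbx6 was at most 0.182 FPKM in these 4 libraries. The neural pair summed to 42.7 and 57.0 FPKM with dTAG13, against 78.7 and 75.8 with DMSO. Strand use in counting is not given in the sources used here, so reads from overlapping genes on opposite strands cannot be told apart. In GENCODE M21, Rad54l shares 1184 of its 7706 exonic bases with Lrrc41 (dTAG13 log2 difference 0.52), Fanca shares 920 of 8761 with Zfp276 (-0.29) and Xrcc6 shares 344 with Desi1 (0.02).

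Promoter sequence is shown for genes that fell together with dTAG13, for Rad51b, which was higher at day 6, and for Brca2 as the carrier of a motif. Each is the 250 bases before the RefSeq gene start (GRCm38.p6) and holds 0 annotated exonic bases, and the strand printed is that of the gene. The windows are chr4:55349792-55350041 (plus) for Rad23b, chr8:123318577-123318826 (minus) for Fanca, chr6:126939588-126939837 (minus) for Rad51ap1, chr12:79297032-79297281 (plus) for Rad51b and chr5:150522371-150522620 (plus) for Brca2. Capitals in Brca2 mark the reverse complement of TTTCCCGC, 168 bases upstream.
Rad23b: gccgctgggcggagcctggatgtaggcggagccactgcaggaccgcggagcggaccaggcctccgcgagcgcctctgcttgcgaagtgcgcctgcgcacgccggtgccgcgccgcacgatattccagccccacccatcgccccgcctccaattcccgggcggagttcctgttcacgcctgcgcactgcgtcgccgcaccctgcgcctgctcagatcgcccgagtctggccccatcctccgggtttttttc
Fanca: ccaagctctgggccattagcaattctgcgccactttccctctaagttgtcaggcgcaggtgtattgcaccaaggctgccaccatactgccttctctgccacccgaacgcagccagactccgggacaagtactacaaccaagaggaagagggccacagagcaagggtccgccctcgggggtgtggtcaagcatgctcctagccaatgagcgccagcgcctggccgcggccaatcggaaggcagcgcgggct
Rad51ap1: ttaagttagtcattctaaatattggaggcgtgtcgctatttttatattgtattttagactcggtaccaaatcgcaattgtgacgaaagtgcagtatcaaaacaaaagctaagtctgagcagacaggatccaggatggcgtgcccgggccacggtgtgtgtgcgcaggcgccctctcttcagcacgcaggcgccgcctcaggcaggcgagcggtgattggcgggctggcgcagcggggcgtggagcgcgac
Rad51b: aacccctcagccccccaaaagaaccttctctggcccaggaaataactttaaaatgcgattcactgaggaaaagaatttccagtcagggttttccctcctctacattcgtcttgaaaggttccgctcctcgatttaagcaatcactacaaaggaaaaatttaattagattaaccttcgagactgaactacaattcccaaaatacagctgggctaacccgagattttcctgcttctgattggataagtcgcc
Brca2: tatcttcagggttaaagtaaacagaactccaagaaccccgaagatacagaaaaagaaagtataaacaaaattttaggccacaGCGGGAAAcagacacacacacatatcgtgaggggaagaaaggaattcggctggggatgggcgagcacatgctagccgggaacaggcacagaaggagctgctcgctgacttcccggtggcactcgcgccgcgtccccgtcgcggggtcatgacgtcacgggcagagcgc

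A RefSeq promoter was matched for 39 of the 53 genes. The E2F-type spellings TTTCCCGC, TTTCGCGC, TTTGCCGC and TTTGGCGC, read on both strands, occurred in 5 of these 39 windows (12.8%): Brca2, Fancg, Msh3, Xrcc6 and Msh5. They occurred in 4.14% of the 9186 windows of tested genes, a set without Msh5. The element TTTGAA, known from cell cycle promoters, occurred in 0 of 39, against 12.1% of those windows. A match is only a run of letters, and a window without one says nothing about the factor. Msh3 and Xrcc6, which fell with dTAG13, held a match, while the printed windows of Rad23b, Fanca and Rad51ap1 held none. All 250 bases of the Msh3 and Xrcc6 windows are annotated as exonic, and the start used for Xrcc6 lies 28534 bases from its GENCODE gene start. The Fancg window holds 205 exonic bases and that of Msh5 holds 46, so of the 5 only that of Brca2 holds 0.

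Day 6 against day 2 gave 4 changed repair genes in EV cells (7.69%), beside 23.7% of all tested genes, and 11 in OE cells (21.2%), beside 32.3%. The EV genes were 1 higher, beside 13.3% of all genes, and 3 lower, beside 10.5%. The OE genes were 2 higher, beside 17.5%, and 9 lower, beside 14.7%. The EV pair of groups and the OE pair share no library, but both tests of a gene use the same estimate of its spread. The 2 lists are thus not independent, and the overlap of the lists over all genes is not given here. All 4 genes of the EV comparison (Rad51b, Ercc3, Ercc8 and Parp1) also changed in OE cells, in the same direction, which is 100% of the EV list and 36.4% of the OE list. The median log2 difference of the repair genes was -0.08 in EV and -0.11 in OE cells, against 0.04 and 0.08 over all tested genes.

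Rad51b, in a complex that assists strand-exchange filaments (chromosome 12, 79297282 to 79814690, plus strand), rose in both. It read 8.94 and 7.25 FPKM in day 6 EV, against 2.34 and 4.18 in day 2 EV (log2 difference 1.12, SE 0.25, limma adjusted p = 0.00956). In OE cells it read 11.2 and 11.9 FPKM at day 6, against 4.12 and 5.01 at day 2 (log2 difference 1.18, SE 0.25, limma adjusted p = 0.00537). The day 6 values lay above the day 2 values of every group for this gene. Rad51c, which forms complexes with Rad51b and with Xrcc3, read 8.37 and 8.87 FPKM in day 6 OE, against 4.32 and 3.73 in day 2 OE, and rose by 0.94 (SE 0.27, limma adjusted p = 0.0244). In EV cells it read 6.60 and 6.75 FPKM at day 6, against 3.86 and 4.37 at day 2, which did not pass (log2 difference 0.59, adjusted p = 0.146). Rad52, which anneals single strands, read 8.66 and 6.95 FPKM in day 6 OE, against 12.2 and 12.7 in day 2 OE, and fell by 0.62 (SE 0.19, limma adjusted p = 0.0308). Its EV difference of -0.50 did not pass.

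Nucleotide excision repair genes were lower at day 6. All 8 had negative log2 differences in EV cells, 7 without overlap between days, beside 33% of all genes, and 2 passed, beside 10.5% called lower. In OE cells 6 were lower without overlap, beside 35.9%, and 4 passed, beside 14.7%. The pathway median was -0.42 in EV and -0.41 in OE cells, and it stayed negative under quantile normalization (-0.63 and -0.54) and median-ratio scaling (-0.42 and -0.42). Ercc3 (XPB, a helicase of TFIIH; chromosome 18, 32240300 to 32270151, plus strand) read 16.0 and 15.2 FPKM in day 6 EV, against 26.7 and 21.7 in day 2 EV, and fell by 0.59 (SE 0.15, limma adjusted p = 0.0191). In OE cells it read 15.6 and 14.1 FPKM at day 6, against 27.8 and 23.7 at day 2, and fell by 0.75 (SE 0.15, limma adjusted p = 0.00435). These 4 day 6 values were the lowest of the 12 libraries.

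Ercc8 (CSA, a ubiquitin ligase adaptor for stalled polymerase; chromosome 13, 108158731 to 108195364, plus strand) read 4.40 and 4.14 FPKM in day 6 EV, against 7.83 and 6.41 in day 2 EV (log2 difference -0.62, SE 0.19, limma adjusted p = 0.0371). In OE cells it read 6.10 and 5.86 FPKM at day 6, against 9.19 and 9.13 at day 2 (log2 difference -0.54, SE 0.19, limma adjusted p = 0.0489). Ercc2 (XPD, the other TFIIH helicase) read 4.14 and 4.73 FPKM in day 6 OE, against 8.97 and 8.01 in day 2 OE. Ercc1 read 32.2 and 29.8 FPKM in day 6 OE, against 50.9 and 44.9 in day 2 OE. Both passed in OE cells, with log2 differences of -0.80 (SE 0.22, limma adjusted p = 0.0214) and -0.61 (SE 0.18, adjusted p = 0.0258). Ercc1 shares 106 exonic bases with Cd3eap on the other strand, whose log2 difference in OE cells was -1.05, and Ercc2 shares 744 with Klc3.

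Parp1 (chromosome 1, 180568924 to 180601254, plus strand) fell at day 6 in both. It read 202 and 213 FPKM in day 6 EV, against 291 and 271 in day 2 EV (log2 difference -0.44, SE 0.13, limma adjusted p = 0.0323). In OE cells it read 234 and 211 FPKM at day 6, against 352 and 324 at day 2 (log2 difference -0.60, SE 0.13, limma adjusted p = 0.00562). The day 6 libraries did not overlap the day 2 EV and OE libraries. The other genes that fell in OE cells were Fancl, the ubiquitin ligase of the Fanconi core complex, at 20.3 and 17.7 FPKM at day 6 against 32.7 and 31.7 at day 2 (log2 difference -0.74, SE 0.23, adjusted p = 0.0339), Msh3 and Xrcc6. Msh3 read 17.4 and 16.9 FPKM in day 6 OE, against 23.4 and 24.7 in day 2 OE (-0.46, adjusted p = 0.0309). Xrcc6 read 96.2 and 96.1 FPKM in day 6 OE, against 123 and 114 in day 2 OE (-0.30, adjusted p = 0.0431).

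Most repair genes did not pass between days. In EV cells 8 genes were higher without overlap between days, beside 39.9% of all genes, and 22 lower, beside 33%. In OE cells 12 were higher, beside 46%, and 28 lower, beside 35.9%. Brca2 read 6.76 and 9.10 FPKM in day 6 EV, against 7.22 and 9.19 in day 2 EV. Fancd2 read 24.9 and 29.4 FPKM in day 6 EV, against 19.6 and 25.4 in day 2 EV. The days overlapped for both, and neither passed.

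**Figure D3:**
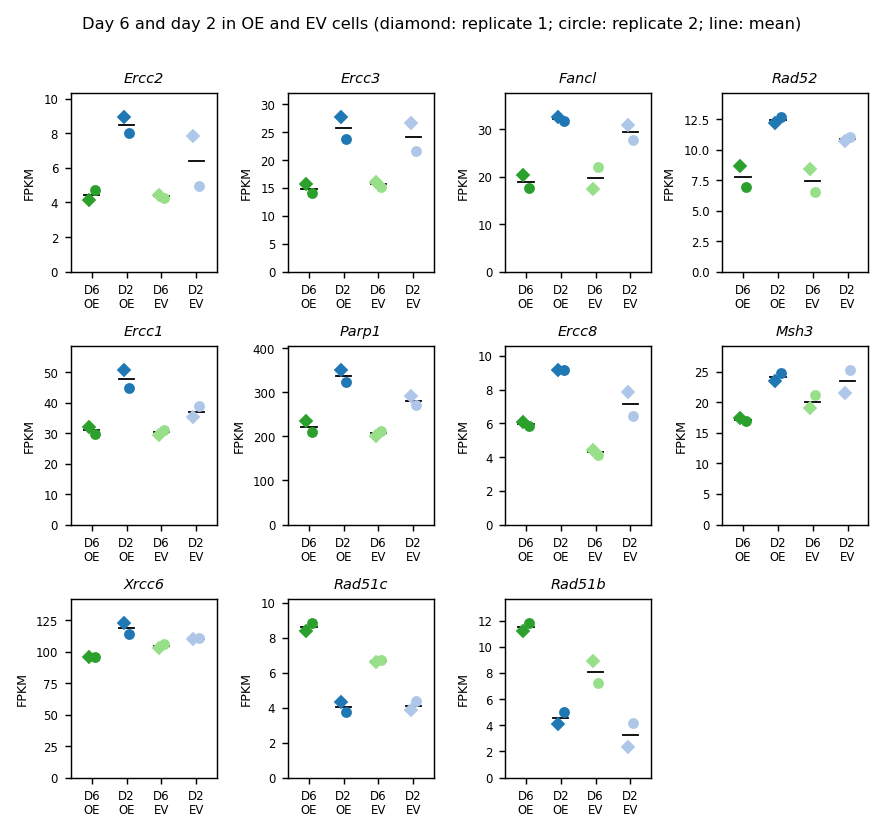
FPKM per library of the repair genes that changed between days, in the order day 6 OE, day 2 OE, day 6 EV and day 2 EV. Rad51b and Rad51c are higher at day 6, while Ercc3, Ercc8 and Parp1 are lower at day 6 in both backgrounds.

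These counts were sensitive to the libraries and scaling used. Quantile normalization called 5 higher and 11 lower in OE cells and moved the median over all genes there to -0.04, against 0.08 before. It called 4286 of all 12059 genes in that comparison. Without dTAG13 replicate 1, which is in neither comparison but enters the shared spread, they were 18 in EV, beside 52.2% of all genes, and 23 in OE, beside 59%, and the 4 and the 11 all remained. Leaving out any library of the groups compared left fewer repair genes and fewer of all genes past the threshold, in EV and in OE cells. The summed level of replication and cell cycle genes moved with the day, and its part was not tested. In EV cells 0 of 24 rose, beside 13.3% of all genes, and 4 fell (16.7%), beside 10.5%. Their summed level was 2943 to 3246 FPKM at day 6, against 3683 to 3856 at day 2. In OE cells 1 rose, beside 17.5% of all genes, and 8 fell, beside 14.7%. Both directions together made 37.5%, beside 32.3% of all genes. The summed level there was 3264 to 3448 FPKM at day 6, against 4028 to 4495 at day 2.

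OE against EV changed 0 of the 52 repair genes at day 2, beside 0.846% of all tested genes (0.44% higher and 0.406% lower), and 0 at day 6, beside 3.72% (1.92% higher and 1.79% lower). At an unadjusted p below 0.05 there was 1 at day 2, beside 12.3% of all genes, and 4 at day 6, beside 18%. The median log2 difference was 0.09 at day 2 and 0.05 at day 6, against 0.04 and 0.05 over all tested genes, and the day 6 median turned to -0.03 with quantile normalization and to -0.01 with median-ratio scaling. At day 2, 20 repair genes were higher in OE without overlap, beside 31.1% of all genes, and 9 lower, beside 22.6%. At day 6, 20 were higher, beside 39.3%, and 10 lower, beside 29.5%.

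Rad9a was the gene at day 2, with 51.9 and 42.0 FPKM in OE, against 33.3 and 34.1 in EV (log2 difference 0.46, limma adjusted p = 0.396). At day 6, Rad23b read 8.85 and 9.98 FPKM in OE, against 5.28 and 7.39 in EV (log2 difference 0.52, adjusted p = 0.237). Ercc6 read 4.16 and 3.50 FPKM in day 6 OE, against 2.42 and 2.37 in day 6 EV (0.51, adjusted p = 0.204). These 3 genes had higher values in both OE libraries than in both EV libraries, and none passed the test. Fancd2os, transcribed against Fancd2 and sharing 257 exonic bases with it, read 0.664 and 1.095 FPKM in day 6 OE, against 2.35 and 2.07 in day 6 EV (-0.78, adjusted p = 0.177).

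Among the genes at the core of each pathway, Brca1 read 29.5 and 34.4 FPKM in day 2 OE, against 35.3 and 40.9 in day 2 EV. It read 31.0 and 32.0 FPKM in day 6 OE, against 29.4 and 33.8 in day 6 EV. For Brca1 the OE libraries thus lay below EV at day 2 and inside the EV pair at day 6. Fanca read 27.6 and 26.9 FPKM in day 2 OE, against 25.1 and 23.6 in day 2 EV. It read 27.0 and 27.8 FPKM in day 6 OE, against 26.0 and 26.4 in day 6 EV. Its OE libraries lay above EV on both days. Xrcc1 read 79.0 and 79.9 FPKM in day 2 OE, against 74.1 and 61.7 in day 2 EV. It read 81.0 and 82.6 FPKM in day 6 OE, against 80.7 and 74.5 in day 6 EV. For these 3, every OE and EV library lay outside the range of the dTAG13 pair, above it for Brca1 and Fanca and below it for Xrcc1.

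Without dTAG13 replicate 1, 3 repair genes passed for OE at day 2 (Rad9a, Rad9b and Ercc1), beside 14.1% of all genes. At day 6, 8 passed, among them Ercc6, Ercc8, Fancc, Fancd2os, Fancg, Rad23b and Xrcc4, beside 25.4%. The difference between the OE effects at the 2 days, which is also the difference between the day effects in OE and EV cells, passed for 0 of 52, beside 0.232% of all genes (0.0663% higher and 0.166% lower). It passed for 0 at an unadjusted p below 0.05, beside 10.8%. Its log2 values ran from -0.66 for Fancg to 0.59 for Ercc6. Fancg read 15.3 and 15.1 FPKM in day 6 OE, against 21.4 and 23.2 in day 6 EV. It read 16.1 and 15.7 FPKM in day 2 OE, against 16.0 and 12.8 in day 2 EV. Day 6 EV was thus the group that stood above the other 3, and without dTAG13 replicate 1 Fancg was the 1 gene to pass for this difference (adjusted p = 0.0334), beside 11.1% of all genes.

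**Figure D4:**
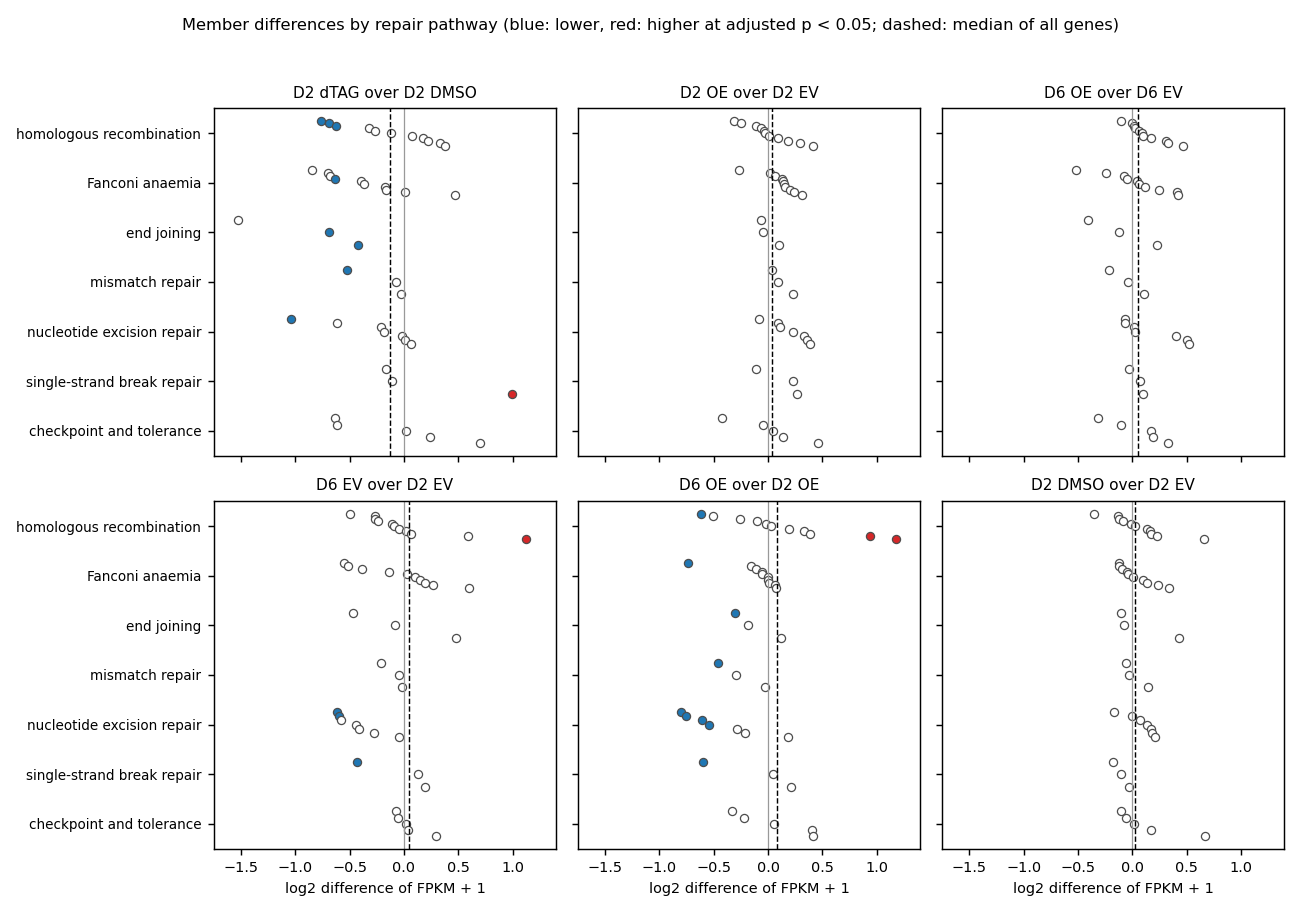
Log2(FPKM + 1) differences of genes of 7 repair pathways in 6 comparisons; filled points passed limma at an adjusted p below 0.05 (red higher, blue lower) and the dashed line is the median of all tested genes. Nucleotide excision repair genes lie mostly left of 0 at day 6 in EV and OE cells, and end-joining and Fanconi anaemia genes mostly left of 0 with dTAG13, as they also do under both other scalings.

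DMSO against EV at day 2, which sets side by side the groups against which dTAG13 and OE were compared, changed 0 of 52 repair genes, beside 0.39% of all genes (0.249% higher and 0.141% lower). At an unadjusted p below 0.05 there were 2, beside 8.92% of all genes, and without overlap 17 were higher, beside 29.5%, and 11 lower, beside 22.7%. Rad9b read 20.5 and 21.03 FPKM with DMSO, against 13.1 and 12.2 in EV (log2 difference 0.67, limma adjusted p = 0.413). Rad51b read 6.06 and 5.16 FPKM with DMSO, against 2.34 and 4.18 in EV (0.66, adjusted p = 0.438). Without dTAG13 replicate 1, Rad9b passed (adjusted p = 0.00498), beside 8.1% of all genes. The Tex10 transcript was lower with DMSO than in EV by a log2 difference of -1.13 (limma adjusted p = 0.0104).

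**Figure D5:**
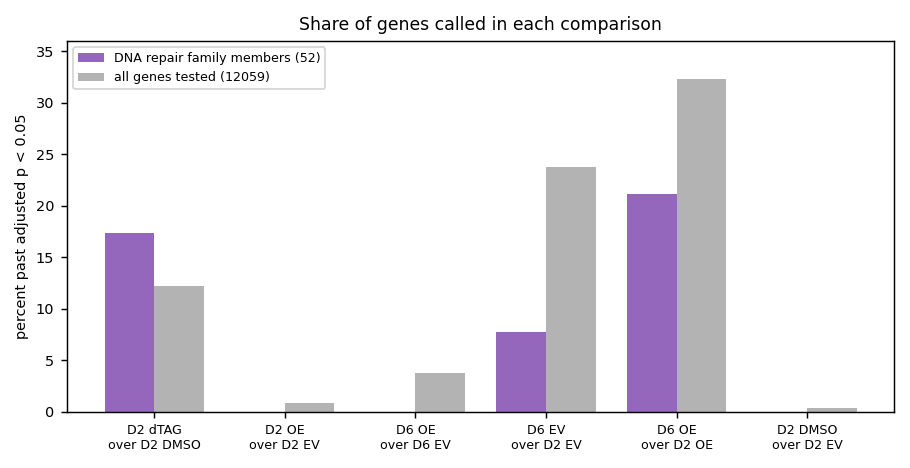
Percent of the 52 repair genes and of all 12059 tested genes that passed limma at an adjusted p below 0.05, per comparison. With dTAG13 the repair genes stand at 17.3% and all genes at 12.2%; between days the repair genes lie below all genes, at 7.69% and 23.7% in EV and 21.2% and 32.3% in OE cells.

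Repair genes outside the named families, 114 of which were tested, changed about as often as all genes with dTAG13: 3 rose and 11 fell (12.3%, beside 12.2% of all genes), with a median of -0.19. Bard1, the obligate partner of Brca1, fell by 1.16 (limma adjusted p = 0.0285), the resection factor Rbbp8 (CtIP) by 1.17 (adjusted p = 0.029) and the Bloom helicase Blm by 1.11 (adjusted p = 0.00927). In dTAG13 replicate 1, 5 of the 26 homologous recombination genes in this list read below 1 FPKM. In dTAG13 replicate 2 and in each DMSO library 0 did. For the 114 genes no fit without dTAG13 replicate 1 is given, so falls that rest on that library cannot be told apart here. The damage-verification factor Xpa rose, with 30.6 and 13.6 FPKM with dTAG13 against 9.46 and 6.30 with DMSO (log2 difference 1.30, adjusted p = 0.037), as did the end-joining factor Nhej1 (1.06, adjusted p = 0.0232) and the translesion polymerase Rev1 (0.95, adjusted p = 0.038). At day 2, 1 of the 114 rose in OE against EV, beside 0.44% of all genes. It was Mad2l2 (Rev7), a subunit of translesion polymerase zeta and of shieldin (0.79, limma adjusted p = 0.0284). At day 6 Mad2l2 rose in OE against EV by 0.65, beside 1.92% of all genes higher. The fork protection factor Tipin fell by 0.57, beside 1.79% lower. For DMSO against EV, 0 of the 114 passed, beside 0.39% of all genes, and 6 had an unadjusted limma p below 0.05, beside 8.92%.

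Between days, 4 of the 114 rose and 12 fell in EV cells (14.0%), beside 23.7% of all genes, and 7 rose and 15 fell in OE cells (19.3%), beside 32.3%. Both shares were below those of all genes. The DNA glycosylase gene Neil3 rose by 1.66 in EV and by 2.07 in OE cells, reading 13.2 and 12.005 FPKM in day 6 OE, against 1.97 and 2.51 in day 2 OE. Mad2l2 rose by 1.13 in EV and 0.98 in OE cells. In EV cells the largest falls were Ube2a (-1.06), Usp1 (-0.96), Ung (-0.91) and Trp53bp1 (-0.90). In OE cells they were the Fanconi partner Faap24 (-1.28) and the abasic-site nucleases Apex1 (-1.20) and Apex2 (-1.13), while the translesion polymerase Polk rose by 1.02. Apex1 read 215 and 187 FPKM in day 6 OE, against 504 and 424 in day 2 OE.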

How the data were processed

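Poly(A)-enriched RNA from sorted PGCLCs was sequenced, per the labels' protocols. Per the submitters' processing notes, the tools were FastQC 0.10.1, Trim Galore 0.6.3, cutadapt, STAR 2.7.6a and Cufflinks 2.2.1, with the mm10 build. The deposited table holds FPKM values made by the authors for 12955 genes. An added 1 was subtracted; it was recognised because 7 or more digits occur in 90.1% of the entries from 1.1 to 2 and in 0% of those from 2 to 10. Read depth is unknown, so the precision of low values is too; summed FPKM ran from 550230 to 673435 per library.

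Groups followed the labels; 1 title spells dTAG differently, and its treatment field was used. Genes with an FPKM of at least 1 in at least 2 libraries entered limma 3.58.1 (R 4.3.3) as log2(FPKM + 1), a scale that understates changes of low genes. The 6 groups shared one linear model with a trended prior (residual degrees of freedom 6, prior 3.86), and p-values were adjusted by Benjamini-Hochberg over 12059 genes. The script was tested on simulated data. The members, pathways and gene lists were chosen with earlier results of these data known. Genes named were Tex10, Itgb3, a fixed set of core repair genes whatever their values, every member past the threshold where there were 12 or fewer, the highest and lowest member of each pathway, members listed at 0 or near the filter, and up to 6 other repair genes per comparison with the largest changes. Other genes are named as examples, chosen after their values were seen. Alternatives covered the pseudocount, filter, scaling, prior trend, replicate block, groups in the model and single libraries. Rad21l, Parp3, Rad54b, Rad51ap2 and Msh4 were not analysed here, and some genes of the named families are not reported here by name. Positions came from GENCODE M21 (GRCm38) by symbol and promoters from RefSeq. Python 3.11.15, pandas 2.3.3 and matplotlib 3.10.9 were used.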

Additional observations from a re-analysis of the deposited data

How the results depend on the processing

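Counts of changed repair genes kept within 1.5 times their value under another pseudocount, the low-value filters, median-ratio scaling and no prior trend. Quantile normalization gave 11 for day 6 against day 2 in EV cells, where 4 had passed, beside 3361 and 2863 of all 12059 genes. It turned Msh6 between days in OE cells to 0.30, where it had been -0.03, and the cause was not tested. With only the groups compared in the model, the count for OE was 1 at day 2, beside 1382 of all 10690 genes. At day 6 it was 10, beside 3495 of 11610, and for dTAG13 it was 0, beside 0 of 10855. Day 6 against day 2 gave 13 in EV cells, beside 5244 of 11516, and 26 in OE cells, beside 7339 of 11358. DMSO against EV gave 1, beside 302 of 10855, and the difference between OE effects gave 1, beside 1194 of 11859. Leaving out single libraries, dTAG13 replicate 1 included, gave 0 to 3 for OE at day 2, 0 to 8 at day 6, 1 to 29 for dTAG13, 0 to 18 for day 6 in EV cells, 0 to 23 in OE cells, 0 to 1 for DMSO against EV and 0 to 1 for the difference between OE effects. A group left with 1 library was assumed to vary like the others. The number of all genes called varied between these fits too.

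The labels do not say whether same-numbered libraries were handled together. Their deviations correlated between -0.135 and 0.252, which cannot decide whether they were paired. With the replicate number as a block, OE gave 0 at day 2 and at day 6, beside 98 and 372 of all 12059 genes. The dTAG13 count was 11 (Fancd2 and Rad9a added), beside 1349 of all genes. Between days the counts were 4 in EV and 10 in OE cells, beside 2741 and 3777. DMSO against EV and the difference between OE effects gave 0 each, beside 39 and 21. Crossed numbers, chosen after seeing the data, gave 9 for dTAG13 and 0 for OE at day 6, beside 1414 and 325 of all genes. Without read depth, counting error of genes such as Fancf, Fancd2os and Rad54l2 cannot be given.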

Other observations

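Of 12 meiotic recombination genes outside the repair families, 5 rose (41.7%) and 1 fell (8.33%) at day 6 in OE cells, beside 17.5% and 14.7% of all tested genes. The axial element gene Sycp3 read 27.6 and 26.5 FPKM in day 6 OE, against 5.30 and 8.30 in day 2 OE (log2 difference 1.87, limma adjusted p = 0.0244). Dmc1, the strand-exchange protein specific to meiosis, read 4.53 and 4.38 FPKM in day 6 OE, against 1.404 and 1.35 in day 2 OE (1.20, adjusted p = 0.031). Tex11, Meiob and Hormad1 also rose, by 0.98, 0.93 and 0.77, and Mnd1 fell by 0.43. In EV cells 0 rose, beside 13.3% of all genes, and 1 fell, beside 10.5%, namely Mnd1, at 48.9 and 53.001 FPKM at day 6, against 76.9 and 72.8 at day 2. Passing in OE and not in EV cells is not itself a difference between them, and that difference is not given for these genes. The 13 such genes in the table summed to 178 to 203 FPKM in day 6 EV and 202 to 212 FPKM in day 6 OE. With dTAG13, Hormad1 rose by 1.39, beside 4.01% of all genes higher, while Hormad2 fell by 1.60 and Tex11 by 0.97, beside 8.21% lower. Of the 13 meiotic recombination genes in the table, 3 were listed at 0 in dTAG13 replicate 1, and 0 in replicate 2 and in each DMSO library. A fit without dTAG13 replicate 1 is not given for these genes.

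Several repair genes share a start region with a neighbour on the other strand. Pomgnt1, whose start lies 150 bases from that of Rad54l, fell with dTAG13 by 1.08 (limma adjusted p = 0.0224). Nbr1, 194 bases from the start of Brca1, had a log2 difference of 0.28 with dTAG13 and did not pass. Ndufaf2, 108 bases from the start of Ercc8, fell between days in OE cells by 0.39 (adjusted p = 0.0351). Other neighbours changed without their repair gene. Zfyve21, 297 bases from the start of Xrcc3, rose between days by 0.81 in EV and in OE cells (limma adjusted p = 0.00099 and 0.00055). Xrcc3 had log2 differences of -0.24 and -0.51 there. Zfyve26, 978 bases from the start of Rad51b, rose by 0.73 with dTAG13 (limma adjusted p = 0.044), where Rad51b had 0.17.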
